A study of Homo sapiens with 18 samples.

Results

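HEXIM1, LARP7, MEPCE, CDK9, CCNT1, CCNT2, BRD2 and BRD3 were followed by gene symbol through the deposited tables of 2 human lymphoma cell lines. They are 8 of the 23686 symbols in each table, and all 8 passed the filter on low counts in both lines. RNA was measured by bulk sequencing after removal of ribosomal RNA in OCI-Ly1 and TMD8, established lines of diffuse large B-cell lymphoma, with and without JIB-04, a small-molecule inhibitor of Jumonji histone demethylases. In either line the cells received 0.01% DMSO (the vehicle control), 150 nM JIB-04 or 500 nM JIB-04, and 3 libraries, technical triplicates per the labels, were read for each of the 6 groups, 18 in all. OCI-Ly1, a germinal-centre B-cell-like line, was kept in IMDM and TMD8, an activated B-cell-like line, in RPMI 1640, so line and medium cannot be told apart, and the labels give no time of treatment. No group carried a genetic change made for the study. Each p-value below measures only the spread between these libraries, which may be technical.

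RNA polymerase II pauses shortly after the start of most genes and is released by P-TEFb, a kinase made of CDK9 and a cyclin T (CCNT1 or CCNT2). Much of P-TEFb is held inactive on the 7SK RNA, which MEPCE caps, LARP7 binds and stabilises, and HEXIM1 joins as the subunit that inhibits the kinase. The BET proteins BRD2 and BRD3 bind acetylated histones at active genes, and HEXIM1 RNA is widely used as a marker that goes up when BET proteins or P-TEFb are disturbed.

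The promoter sequences of HEXIM1 and BRD3 are shown because these were the members with the largest rise in TMD8 and in OCI-Ly1, respectively, and both have a single listed start. They are the 250 bases before the start in RefSeq (GRCh38.p14), 5′ to 3′ on the strand of the gene, with the TATA box TATAAA in capitals, as are CCAAT and its reverse complement, ATTGG. HEXIM1 lies on the plus strand at chr17:45148225-45148474 and BRD3 on the minus strand at chr9:134068027-134068276.
HEXIM1: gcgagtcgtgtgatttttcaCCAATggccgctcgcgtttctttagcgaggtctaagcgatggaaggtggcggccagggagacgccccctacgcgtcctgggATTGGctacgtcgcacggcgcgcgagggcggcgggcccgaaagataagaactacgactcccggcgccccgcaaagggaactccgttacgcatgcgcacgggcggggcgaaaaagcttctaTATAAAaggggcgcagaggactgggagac
BRD3: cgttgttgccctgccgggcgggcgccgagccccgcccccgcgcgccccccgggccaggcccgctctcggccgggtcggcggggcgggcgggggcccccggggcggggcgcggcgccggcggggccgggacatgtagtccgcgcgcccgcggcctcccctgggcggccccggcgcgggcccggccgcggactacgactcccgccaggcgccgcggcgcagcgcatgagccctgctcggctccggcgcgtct
Both strands were searched for the TATA box (TATAAA), the CCAAT box, the GC box (GGGCGG), the E-box (CACGTG) and the cyclic AMP response element (TGACGTCA). HEXIM1 held 1 TATAAA, 29 to 24 bases before the start, 1 CCAAT on each strand and 2 GGGCGG, at 62.4% G or C. BRD3 held 6 GGGCGG, of which 2 overlap each other, and neither TATAAA nor CCAAT, at 86.8% G or C. All 8 members matched RefSeq, with 15 listed starts between them, and the HEXIM1 promoter was the only one of those 15 with TATAAA. Among 35116 RefSeq promoter windows of this length, 10.7% held the TATA box, 32% the CCAAT box, 42.6% the GC box, 6.34% the E-box and 1.65% the cyclic AMP response element. These are matches of letters and show no binding.

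Library totals were 17579732 to 32651115 estimated counts in OCI-Ly1 and 9550092 to 20509500 in TMD8. The B-cell markers MS4A1, CD79A, CD79B, PAX5 and CD22 were each at 1 TPM (transcripts per 1000000) or more in both lines. The summed germinal-centre list (BCL6, MME, LMO2 and MYBL1) was at 164 to 202 TPM in OCI-Ly1 and 16.5 to 40.4 TPM in TMD8, and the summed activated list (IRF4, BATF, FOXP1 and ENTPD1) at 106 to 198 and 260 to 638 TPM. A pair of members ran against these sums in TPM. The germinal-centre gene LMO2 averaged 0.0113 TPM in OCI-Ly1 and 25.1 TPM in TMD8 with DMSO, and the activated gene FOXP1 averaged 38.3 and 30.7 TPM. For FOXP1 this order was not that of read counts per 1000000, scaled within each line, which averaged 171 and 291. Its difference between lines is given without a test. The activated sum moved with JIB-04, from 106 to 111 TPM with DMSO to 188 to 198 TPM at 500 nM in OCI-Ly1 and from 508 to 638 TPM down to 260 to 302 TPM in TMD8. Not every gene of that list followed its sum. With DMSO and at 500 nM, ENTPD1 averaged 10.6 and 8.75 TPM in OCI-Ly1, and FOXP1 30.7 and 32.1 TPM in TMD8. The germinal-centre sum fell in TMD8 as well, from 32.4 to 40.4 TPM with DMSO to 16.5 to 18.3 TPM at 500 nM. LMO2 averaged 6.93 TPM there at 500 nM and was the gene of the list that carried the fall. With DMSO and at 500 nM in TMD8, BCL6 averaged 9.48 and 9.39 TPM and MYBL1 0.885 and 0.950 TPM. MME averaged 0.0151 and 0.00643 TPM. In OCI-Ly1 that sum was 173 to 188 TPM with DMSO and 164 to 178 TPM at 500 nM. Summed myeloid markers were at or below 1.53 TPM in every library. The T-cell gene CD3D was the one T-cell marker at 1 TPM or more, in OCI-Ly1, where the summed T-cell list ran from 5.14 to 13.8 TPM and was lower at 500 nM, against at most 0.258 TPM in TMD8. The summed stromal or epithelial list (COL1A1, COL1A2, EPCAM and KRT18) ran from 5.64 to 8.82 TPM in OCI-Ly1, where EPCAM and KRT18 averaged over 1 TPM. In TMD8 that sum went from 1.99 to 2.37 TPM with DMSO to 4.44 to 4.86 TPM at 500 nM, the direction in which HEXIM1 moved there, while COL1A1 went from 0.416 ± 0.0314 to 2.74 ± 0.146 TPM (SD, n = 3). The part of these markers in the values of the members was not tested. In bulk RNA, fewer cells of a kind and less RNA per cell cannot be told apart.

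HEXIM1 rose with dose in TMD8 and was the member with the largest change there. Its normalised read count, in TMM-scaled counts per 1000000 (CPM) within each line, was 60.3, 69.9 and 70.4 in the DMSO libraries, 104.3, 109.5 and 124.5 at 150 nM, and 149.8, 146.8 and 156.7 at 500 nM. Every library of a higher dose lay above every library of a lower one, with no overlap between the 3 groups. The change was 1.69-fold at 150 nM (log2 0.76 ± 0.07 SE, edgeR adjusted p = 1.63e-07) and 2.25-fold at 500 nM (log2 1.17 ± 0.07, edgeR adjusted p = 1.14e-10). From 150 to 500 nM HEXIM1 rose by a further 1.33-fold (log2 0.42 ± 0.07, edgeR adjusted p = 0.00015). Of the genes tested in TMD8, 6.22% had a larger log2 fold change than HEXIM1 at 150 nM and 6.18% at 500 nM. The rises against DMSO stayed past the threshold in all 15 alternative settings at each dose, between 0.55 and 0.84 (log2) for 150 nM and between 0.75 and 1.26 at 500 nM. The step between doses was not called on the unscaled TPM values (log2 0.19, limma adjusted p = 0.125).

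In OCI-Ly1, HEXIM1 RNA was low and moved little. It was at 10.8, 12.0 and 11.8 CPM with DMSO, 11.8, 9.6 and 10.6 CPM at 150 nM, and 13.7, 12.5 and 13.6 CPM at 500 nM. The 500 nM libraries lay above all DMSO libraries, while the 150 nM and DMSO libraries overlapped. The log2 difference from DMSO was -0.11 ± 0.11 at 150 nM (edgeR adjusted p = 0.788) and 0.21 ± 0.10 at 500 nM (95% interval -0.04 to 0.46, edgeR adjusted p = 0.098), neither past the threshold of 0.05. Between 150 and 500 nM HEXIM1 rose by 1.24-fold (log2 0.31 ± 0.10, edgeR adjusted p = 0.0192). That last call was lost without 150 nM library 2 (log2 0.23, edgeR adjusted p = 0.123), 500 nM library 1 (0.28, 0.0733) or 500 nM library 3 (0.30, 0.0554), and the 500 nM difference from DMSO was called when only library size was scaled (log2 0.29, edgeR adjusted p = 0.0222).

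**Figure D1:**
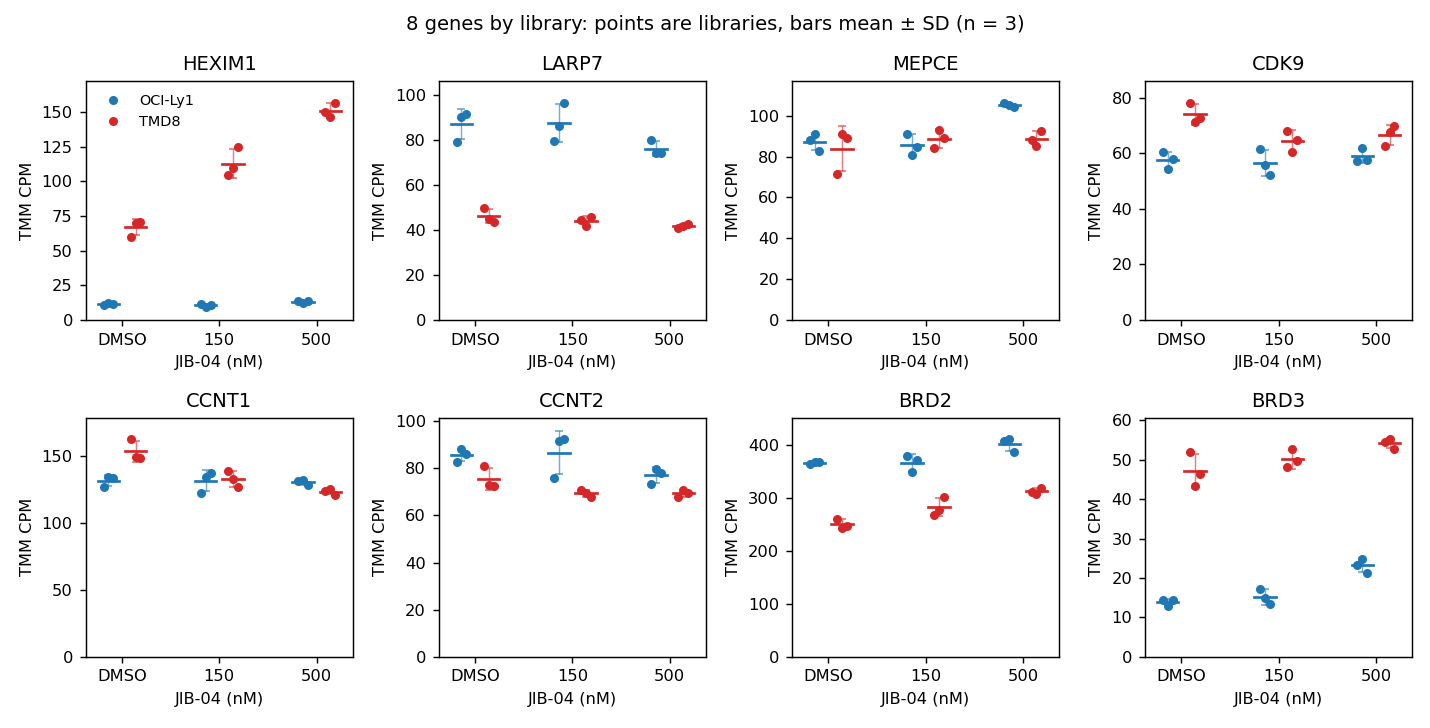
TMM-scaled counts per 1000000 (CPM) of each of the 8 genes (y axes, from 0) with DMSO and at 150 and 500 nM JIB-04 (x axes), OCI-Ly1 in blue and TMD8 in red; points are libraries, bars the mean and SD of 3. HEXIM1 climbs in TMD8 from 60.3 to 70.4 CPM with DMSO to 146.8 to 156.7 CPM at 500 nM and stays between 9.6 and 13.7 CPM in OCI-Ly1.

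The response of HEXIM1 to JIB-04 differed between the lines. In 1 fit of all 18 libraries, its log2 change in OCI-Ly1 minus that in TMD8 was -0.85 ± 0.12 at 150 nM (edgeR adjusted p = 1.32e-05) and -0.93 ± 0.11 at 500 nM (edgeR adjusted p = 2.36e-07). Both differences were past the threshold in all 20 alternative settings, spanning -0.94 to -0.61 for the lower dose and -0.98 to -0.47 for the higher. The lines also started apart. With DMSO, HEXIM1 was lower in OCI-Ly1 by a log2 difference of -2.66 ± 0.08 (0.158-fold, edgeR adjusted p = 2.49e-21). Per transcript length, HEXIM1 was at 3.09 ± 0.196 TPM (SD, n = 3) in OCI-Ly1 and 9.92 ± 0.0933 TPM in TMD8 with DMSO, and at 3.91 ± 0.153 and 17.4 ± 1.54 TPM with 500 nM.

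Of the 2 scaffold proteins of the 7SK particle, MEPCE rose and LARP7 fell at 500 nM in OCI-Ly1, and neither passed the test in TMD8. MEPCE, the capping enzyme, was at 88.0, 91.1 and 82.8 CPM with DMSO in OCI-Ly1, 91.3, 80.8 and 84.6 CPM at 150 nM, and 106.3, 105.1 and 104.2 CPM at 500 nM. The 500 nM libraries stood above all 6 others, which overlapped. MEPCE rose by 1.21-fold at 500 nM against DMSO (log2 0.27 ± 0.06, edgeR adjusted p = 0.00087), and this held in all 15 alternative settings, between 0.17 and 0.40 (log2). In TMD8 MEPCE was at 71.2, 91.2 and 89.3 CPM with DMSO, 84.2, 93.1 and 89.0 CPM at 150 nM, and 88.2, 85.4 and 92.7 CPM at 500 nM. These groups overlapped, with DMSO library 1 the lowest of all, and the log2 difference at 500 nM was 0.08 ± 0.07 (edgeR adjusted p = 0.396), which turned to -0.26 on unscaled TPM (limma adjusted p = 0.0152). The difference of the MEPCE change between lines at 500 nM was 0.22 ± 0.10 (edgeR adjusted p = 0.0631), with a 95% interval of 0.01 to 0.44. Without TMD8 DMSO library 1 it was 0.32 (edgeR adjusted p = 0.0026), and without OCI-Ly1 DMSO library 2 it was 0.26 (0.0421). This difference was called in 8 of 20 settings, also with size factors (0.25, edgeR adjusted p = 0.0395), DESeq2 (0.25, adjusted p = 0.0366) and on unscaled TPM (0.65, limma adjusted p = 1.85e-05).

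LARP7, the protein that binds the 3′ end of 7SK, was at 79.3, 90.5 and 91.8 CPM in the OCI-Ly1 DMSO libraries, 79.7, 86.2 and 96.6 CPM at 150 nM, and 80.0, 74.2 and 74.4 CPM at 500 nM. DMSO library 1 lay just under the highest 500 nM library, so these groups overlapped. LARP7 fell at 500 nM by a log2 change of -0.19 ± 0.07 (0.875-fold, edgeR adjusted p = 0.0335). The call was lost without DMSO library 2 (log2 -0.17, edgeR adjusted p = 0.101), DMSO library 3 (-0.16, 0.120), 500 nM library 2 (-0.18, 0.0985) or 500 nM library 3 (-0.18, 0.1), and in 7 of 15 settings altogether, among them library size only (-0.11, 0.207) and unscaled TPM (-0.05, limma adjusted p = 0.667). In TMD8 LARP7 was at 49.8, 45.1 and 43.7 CPM with DMSO, 44.6, 41.7 and 45.9 CPM at 150 nM, and 40.9, 41.8 and 42.8 CPM at 500 nM. All 3 of the 500 nM libraries were below all 3 of the DMSO libraries, but the log2 difference of -0.14 ± 0.06 did not pass (edgeR adjusted p = 0.0631), except without DMSO library 3 (-0.19, 0.0305) and in 4 other settings, where it reached -0.48 on log2(TPM + 1) and -0.51 on log2(TPM + 0.1). The LARP7 changes in the lines differed by -0.02 ± 0.10 at 500 nM (95% interval -0.24 to 0.20, edgeR adjusted p = 0.91), a value that was 0.43 on unscaled TPM.

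CCNT1 and CDK9 fell in TMD8, where HEXIM1 rose, and neither passed the test in OCI-Ly1. CCNT1, the main cyclin T partner, was at 162.1, 149.4 and 148.3 CPM with DMSO in TMD8, 138.5, 132.6 and 126.8 CPM at 150 nM, and 123.6, 124.9 and 121.0 CPM at 500 nM. The 3 groups did not overlap and ran in the opposite order to those of HEXIM1. CCNT1 fell by a log2 change of -0.21 ± 0.05 at 150 nM (0.865-fold, edgeR adjusted p = 0.00221) and of -0.31 ± 0.05 at 500 nM (0.804-fold, edgeR adjusted p = 2.96e-05). Both held in all 15 alternative settings, between -0.36 and -0.12 at 150 nM and between -0.68 and -0.22 at 500 nM. In OCI-Ly1 CCNT1 was at 126.5, 134.2 and 133.1 CPM with DMSO, 122.3, 134.2 and 136.9 CPM at 150 nM, and 130.8, 131.7 and 127.8 CPM at 500 nM. Those groups overlapped, with a log2 difference of -0.01 ± 0.06 (95% interval -0.15 to 0.12, edgeR adjusted p = 0.867). The change in CCNT1 differed between lines by 0.33 ± 0.08 at 500 nM (edgeR adjusted p = 0.000943; 0.29 to 0.81 and called in all 20 settings), and by 0.21 ± 0.08 at 150 nM (edgeR adjusted p = 0.0433). The difference at 150 nM held in 11 of 20 settings and was lost without any 1 of 7 of the 12 libraries compared, down to 0.17 without TMD8 DMSO library 1 (edgeR adjusted p = 0.119). It was also lost with library size only (0.13, edgeR adjusted p = 0.158) and without a filter (0.22, 0.0528).

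CDK9, the catalytic subunit, was at 78.2, 71.3 and 72.5 CPM with DMSO in TMD8, 68.1, 60.4 and 64.7 CPM at 150 nM, and 62.7, 67.5 and 69.7 CPM at 500 nM. Each treated group lay below DMSO, and the doses overlapped each other. CDK9 fell by a log2 change of -0.20 ± 0.06 at 150 nM (edgeR adjusted p = 0.00985) and of -0.15 ± 0.06 at 500 nM (edgeR adjusted p = 0.0327). The call at 150 nM was lost without 150 nM library 2 (log2 -0.16, edgeR adjusted p = 0.0644) or 3 (-0.17, 0.0507), and that at 500 nM without DMSO library 1 (-0.12, 0.0839) or 500 nM library 1 (-0.11, 0.177) or 2 (-0.17, 0.0588). With library size only, neither CDK9 fall was called (-0.11 at 150 nM and -0.06 at 500 nM, edgeR adjusted p = 0.0924 and 0.338), and at 150 nM it was not called on log2(TPM + 0.1) either (-0.35, limma adjusted p = 0.0612). In OCI-Ly1 CDK9 was at 60.3, 54.5 and 57.9 CPM with DMSO, 61.4, 55.8 and 52.0 CPM at 150 nM, and 57.4, 62.0 and 57.7 CPM at 500 nM, overlapping groups with a log2 difference of 0.03 ± 0.07 (edgeR adjusted p = 0.695). The CDK9 changes at 500 nM differed between lines by 0.22 ± 0.09 (95% interval 0.01 to 0.42, edgeR adjusted p = 0.0621), and by 0.26 without OCI-Ly1 DMSO library 1 (0.0379) and 0.25 without TMD8 DMSO library 2 (0.049). This difference was called in 7 of 20 settings, also with size factors (0.24, edgeR adjusted p = 0.0441), DESeq2 (0.24, adjusted p = 0.0463), no filter (0.24, edgeR adjusted p = 0.0402) and on unscaled TPM (0.67 and 0.70, limma adjusted p = 0.000654 and 0.00141).

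CCNT2, the alternative cyclin T, passed the test at neither dose in either line. In TMD8 CCNT2 was at 80.8, 73.1 and 72.6 CPM with DMSO, 70.9, 69.4 and 67.9 CPM at 150 nM, and 67.8, 70.9 and 69.4 CPM at 500 nM. All 6 treated libraries lay below all 3 DMSO libraries, by a log2 difference of -0.12 ± 0.05 at both doses (edgeR adjusted p = 0.0715 and 0.0588). The OCI-Ly1 libraries had CCNT2 at 82.8, 88.0 and 86.0 CPM with DMSO, 76.0, 91.4 and 92.2 CPM at 150 nM, and 73.3, 79.8 and 77.8 CPM at 500 nM. The 500 nM and DMSO libraries did not overlap either, at a log2 difference of -0.15 ± 0.07 (edgeR adjusted p = 0.0724). The value was called in 4 alternative settings, among them the fit of only the 6 libraries compared (log2 -0.15, edgeR adjusted p = 0.034) and the fit with the replicate number as a block (-0.15, 0.0273). In TMD8 the 500 nM value was called in 5 of 15 settings. These were the fits without DMSO library 3 (-0.15, edgeR adjusted p = 0.0413) or without a filter (-0.14, 0.0376), and those on unscaled TPM (-0.43 and -0.48, limma adjusted p = 0.00214 and 0.00461) and centred TPM (-0.17, 0.0142).

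The level of HEXIM1 against that of the kinase subunits was set side by side within each library, as a ratio of TPM values. The 5 ratios computed were chosen after the values were seen. In TMD8 HEXIM1 was at 0.386, 0.490 and 0.485 of CDK9 with DMSO. The ratio was 0.766, 0.905 and 0.961 in the 150 nM libraries and 1.192, 1.086 and 1.124 in the 500 nM libraries. The 3 groups did not overlap, and HEXIM1 exceeded CDK9 in all 3 of the 500 nM libraries and in none of the others. The ratio of HEXIM1 to CCNT1 went from 0.556, 0.701 and 0.710 with DMSO to 1.81, 1.76 and 1.94 at 500 nM, a 2.82-fold difference of the log means. In OCI-Ly1 HEXIM1 stayed between 0.086 and 0.120 of CDK9, and its ratio to CCNT1 was 0.128 to 0.134 with DMSO and 0.142 to 0.159 at 500 nM. Over the 20 comparisons of 5 ratios, the exact two-sided permutation p was 0.1 for each group pair that did not overlap, the smallest that 3 against 3 can give (0.222 after Benjamini-Hochberg adjustment), so no ratio could pass the threshold.

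**Figure D2:**
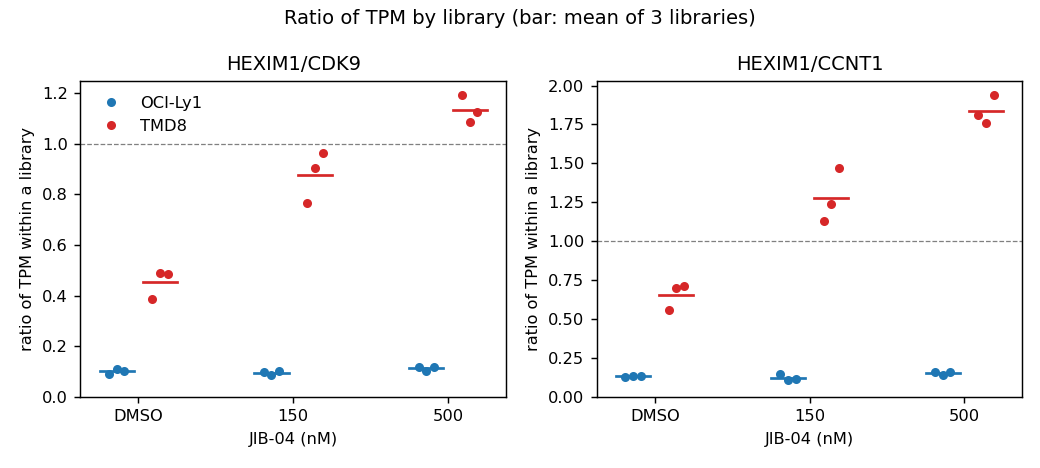
Ratio of HEXIM1 TPM to CDK9 TPM (left) and to CCNT1 TPM (right) within each library (y axes, from 0) by JIB-04 dose (x axes), OCI-Ly1 in blue and TMD8 in red; points are libraries, bars the mean of 3 and the dashed line a ratio of 1. The TMD8 ratio to CDK9 passes 1 only at 500 nM, at 1.086 to 1.192.

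BRD2 and BRD3 are the BET members of the set, and the reads of both were partly shared: their estimated counts were whole (within 0.05) in 1 of 18 libraries, against 18 of 18 for the 6 other members. BRD3 was the member that rose most in OCI-Ly1. It was at 14.4, 12.8 and 14.3 CPM with DMSO, 17.3, 14.9 and 13.4 CPM at 150 nM, and 23.4, 24.8 and 21.3 CPM at 500 nM. The 500 nM libraries lay above all 6 others. BRD3 rose by 1.67-fold at 500 nM (log2 0.74 ± 0.10, edgeR adjusted p = 7.71e-06), in all 15 alternative settings (0.49 to 0.86), and 10.1% of tested genes had a larger log2 fold change. In TMD8 BRD3 was at 51.9, 43.3 and 46.3 CPM with DMSO, 48.0, 52.7 and 49.6 CPM at 150 nM, and 54.6, 55.1 and 52.7 CPM at 500 nM. Every 500 nM library was above every DMSO library, and BRD3 rose by 1.15-fold (log2 0.20 ± 0.07, edgeR adjusted p = 0.0139), but the value was -0.15 on unscaled TPM and 0.11 on centred TPM (limma adjusted p = 0.213 and 0.150). It was 0.14 without DMSO library 2 (edgeR adjusted p = 0.0863) and 0.19 without 500 nM library 2 (0.0553). The BRD3 change at 500 nM was larger in OCI-Ly1 than in TMD8 by 0.56 ± 0.12 on the log2 scale (edgeR adjusted p = 0.000502), and this difference was called in all 20 settings, between 0.41 and 1.03.

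BRD2 was the most abundant member in both lines. The TMD8 libraries had BRD2 at 261.1, 244.0 and 248.2 CPM with DMSO, 269.2, 278.1 and 302.7 CPM at 150 nM, and 311.0, 308.7 and 319.8 CPM at 500 nM. The 3 groups did not overlap and rose in dose order. BRD2 rose by 1.13-fold at 150 nM (log2 0.18 ± 0.05, edgeR adjusted p = 0.00883) and 1.25-fold at 500 nM (log2 0.32 ± 0.05, edgeR adjusted p = 2.82e-05), but on unscaled TPM these values turned to -0.08 and -0.19 and on centred TPM they were 0.02 and 0.07, none past the threshold. In OCI-Ly1 BRD2 was at 365.2, 368.3 and 368.7 CPM with DMSO, 381.0, 349.3 and 371.7 CPM at 150 nM, and 407.5, 411.3 and 387.3 CPM at 500 nM. The 500 nM libraries were above all others and BRD2 rose by 1.09-fold (log2 0.13 ± 0.05, edgeR adjusted p = 0.0264), a call that turned to -0.04 on centred TPM. The call was also lost without DMSO library 1 (log2 0.12, edgeR adjusted p = 0.0748), 2 (0.13, 0.0688) or 3 (0.13, 0.0533) and without 500 nM library 1 (0.12, 0.0936) or 2 (0.11, 0.113). The changes in BRD2 at 500 nM differed between lines by -0.16 ± 0.07 (edgeR adjusted p = 0.079). That difference was called without TMD8 DMSO library 1 (-0.19, 0.0328) and with library size only (-0.19, 0.0215), and was called in the other direction on unscaled TPM (0.38, limma adjusted p = 0.0163).

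On the TPM scale 1 short RNA gene took a large share of every library. In OCI-Ly1 it was RPPH1, at 6.88% to 7.63% of all TPM with DMSO, 6.33% to 7.44% at 150 nM and 9.70% to 10.6% at 500 nM. In TMD8 it was MIR3687, at 16.1% to 17.3%, 15.2% to 20.6% and 19.1% to 24.3%. The 150 nM shares overlapped those with DMSO in both lines. The 500 nM shares lay above those with DMSO in both lines, and above those at 150 nM in OCI-Ly1 only. Against the TMM values, unscaled log2(TPM + 1) moved the median of all genes at 500 nM by -0.26 in TMD8 and by 0.10 in OCI-Ly1. The part of RPPH1 and MIR3687 in the TPM values of the members was not tested.

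Counted over the set, 0 of 8 members were called at 150 nM in OCI-Ly1, where edgeR called 0.889% of 15638 tested genes. No member had an unadjusted p under 0.05 there, and DESeq2 called 0 as well. No member had groups free of overlap at 150 nM in OCI-Ly1, as 14% of tested genes did. At 500 nM in OCI-Ly1, MEPCE, BRD2 and BRD3 rose and LARP7 fell, 4 of 8 members beside 53.6% of all tested genes, and 5 of 8 were free of overlap beside 60.7%. The member median log2 change was 0.08, against -0.0033 over all genes. In TMD8, HEXIM1 and BRD2 rose and CDK9 and CCNT1 fell at 150 nM, 4 of 8 beside 44.2% of 15363 genes, and BRD3 joined the risers at 500 nM, 5 of 8 beside 60.7%. The groups of 5 of 8 members were free of overlap at 150 nM (51.4% of all genes) and those of 7 of 8, all but MEPCE, at 500 nM (66.4%). The member median at 500 nM in TMD8 was -0.02, against 0.04 over all genes. The share of members called was thus near that of all genes at 500 nM in both lines.

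From 150 to 500 nM, HEXIM1, MEPCE, BRD2 and BRD3 rose and LARP7 fell in OCI-Ly1, 5 of 8 beside 46.2% of all genes (25.1% higher and 21.1% lower), and 4 of 8 were free of overlap beside 55.6%. LARP7 lost this call without 150 nM library 2 (log2 -0.22, edgeR adjusted p = 0.0585) or 3 (-0.12, 0.188) and without 500 nM library 2 (-0.19, 0.0963) or 3 (-0.18, 0.102), and BRD2 lost it without 150 nM library 2 (0.09, 0.194) or 3 (0.14, 0.0503) and 500 nM library 1 (0.11, 0.115) or 2 (0.11, 0.135), and turned to -0.03 on centred TPM. In TMD8 only HEXIM1 and BRD2 rose between the doses, 2 of 8 beside 28.7%, and 3 of 8 were free of overlap beside 44.8%. The BRD2 step of 0.14 ± 0.05 (edgeR adjusted p = 0.0418) was lost in 11 of 15 settings, 5 of them the fits without 1 of 5 of the 6 libraries (0.11 to 0.15, edgeR adjusted p of 0.0877 to 0.177), and was -0.11 on unscaled TPM. The change against DMSO differed between lines for 2 of 8 members at 150 nM (HEXIM1 and CCNT1), beside 23.3% of 16604 genes (15% higher in OCI-Ly1 and 8.33% lower), and for 3 of 8 at 500 nM (HEXIM1, CCNT1 and BRD3), beside 46.4% (28.2% higher and 18.1% lower).

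**Figure D3:**
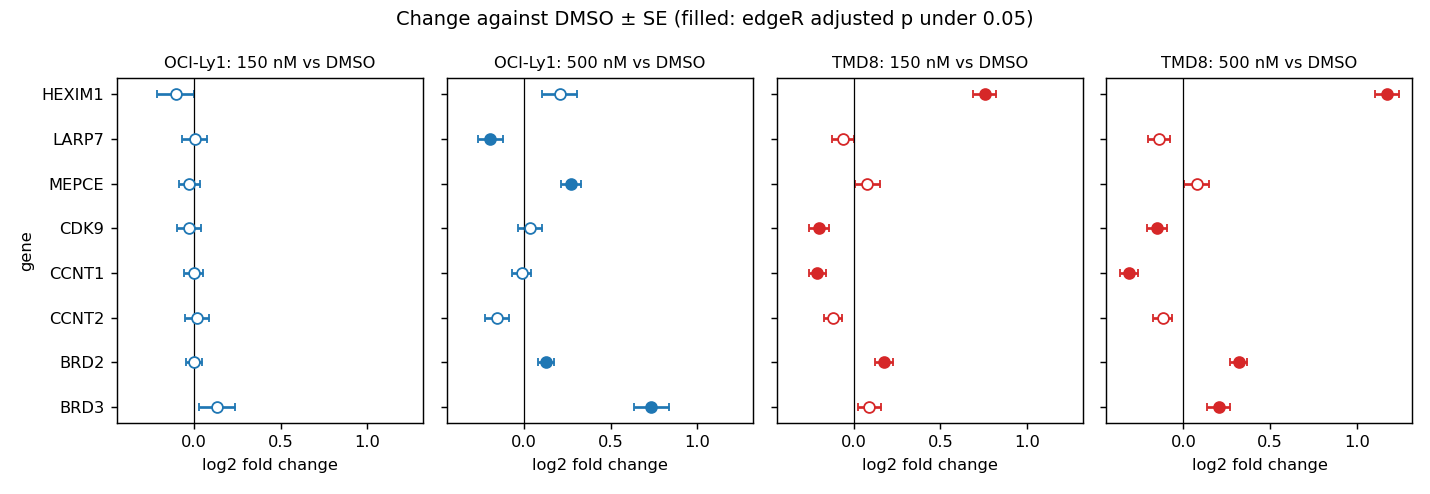
Log2 fold change against DMSO with its SE (x axes) for the 8 genes (rows) in OCI-Ly1 (blue) and TMD8 (red) at 150 and 500 nM, filled where the edgeR adjusted p was under 0.05. HEXIM1 in TMD8 lies at 0.76 and 1.17, and in OCI-Ly1 only BRD3, at 0.74, passes 0.5; on unscaled TPM the BRD2 and BRD3 rises in TMD8 turned to falls that did not pass.

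With DMSO alone, 6 of 8 members differed between the lines, 2 higher and 4 lower in OCI-Ly1, beside 76.7% of all genes (37.8% higher and 39% lower). The libraries of the same 6 were free of overlap between lines, beside 76.4%. BRD3 was lower in OCI-Ly1 by a log2 difference of -1.88 ± 0.09 (0.272-fold, edgeR adjusted p = 6.05e-17), next after HEXIM1. LARP7 was higher there by 0.80 ± 0.07 (edgeR adjusted p = 5.09e-11) and BRD2 by 0.43 ± 0.05 (edgeR adjusted p = 2.33e-08). CDK9 was lower by -0.48 ± 0.07 and CCNT1 by -0.35 ± 0.05 (edgeR adjusted p = 2.45e-07 and 1.84e-06), but on unscaled TPM both were higher in OCI-Ly1, by 0.47 and 0.59 (limma adjusted p = 0.000378 and 4.21e-06). On that scale the difference was 1.69 for LARP7, 1.39 for BRD2, -0.74 for BRD3 and -1.42 for HEXIM1, each called and in the same direction as in CPM. MEPCE (-0.07 ± 0.07, edgeR adjusted p = 0.377) and CCNT2 (0.06 ± 0.06, edgeR adjusted p = 0.403) did not pass. Without TMD8 DMSO library 1 the MEPCE difference was -0.17 (edgeR adjusted p = 0.0167), while on unscaled TPM it was 0.89. The CCNT2 difference was called in 4 of 14 settings, at 0.21 with library size only (edgeR adjusted p = 0.00254), 0.94 and 1.02 on unscaled TPM (limma adjusted p = 6.76e-08 and 3.12e-07) and 0.22 on centred TPM (limma adjusted p = 0.0063).

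Levels of different genes were compared per transcript length, in TPM. With DMSO in OCI-Ly1 the order was BRD2 (115 TPM), LARP7 (51.6), MEPCE (45.2), CDK9 (30.8), CCNT1 (23.5), CCNT2 (15.7), BRD3 (3.14) and HEXIM1 (3.09). Only the libraries of BRD3 and HEXIM1, the lowest pair, overlapped. In TMD8 it was BRD2 (43.6 TPM), MEPCE (23.9), CDK9 (22.1), LARP7 (15.33), CCNT1 (15.31), HEXIM1 (9.92), CCNT2 (7.72) and BRD3 (5.96), where MEPCE overlapped CDK9, LARP7 overlapped CCNT1 and CCNT2 overlapped BRD3. At 500 nM HEXIM1 had moved from rank 6 to rank 3 of 8 in TMD8, at 17.4 TPM, between MEPCE (19.9) and CDK9 (15.3) and overlapping both. In OCI-Ly1 at 500 nM MEPCE (59.8 TPM) had passed LARP7 (49.6 TPM), and BRD3 (5.77 TPM) stood clear of HEXIM1 (3.91 TPM).

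The members did not move as 1 group over the 18 libraries. With each line centred on its mean log2 CPM, HEXIM1 had r = 0.907 with BRD2, 0.481 with MEPCE and 0.392 with BRD3, and r = -0.917 with CCNT1, -0.621 with CCNT2, -0.496 with LARP7 and -0.475 with CDK9. BRD2 followed HEXIM1 in both lines (r = 0.823 over 9 libraries of OCI-Ly1 and 0.936 over 9 of TMD8), while CCNT1 had r = -0.986 with it in TMD8 and -0.292 in OCI-Ly1. In OCI-Ly1 and TMD8, in that order, r with HEXIM1 was 0.875 and 0.469 for MEPCE and 0.701 and 0.657 for BRD3. It was -0.787 and -0.811 for CCNT2, -0.516 and -0.709 for LARP7, and 0.303 and -0.686 for CDK9. No r was computed on TPM, where the BRD2 change in TMD8 at 500 nM turned to -0.19. The r values describe libraries that share doses and scaling, and carry no test. Among 10289 genes of sufficient count, those most like HEXIM1 over the 18 libraries were MIR22HG (r = 0.978), LOC146880 (0.974), CIITA (0.971), LY9 (0.970) and MAFG (0.967). The likeness was closer in TMD8, where r was 0.992, 0.985, 0.993, 0.995 and 0.990 in that order. In OCI-Ly1 r was 0.856, 0.906, 0.812, 0.750 and 0.691, and only LOC146880 of these lay above MEPCE (0.875). BRD2 came at rank 196.

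CIITA, the transactivator of MHC class II genes, was at 120.3 ± 2.49 CPM (SD, n = 3) with DMSO in TMD8, 194.0 ± 9.76 at 150 nM and 256.0 ± 6.96 at 500 nM, and at 49.5 ± 3.40, 46.5 ± 3.64 and 60.1 ± 1.78 CPM in OCI-Ly1. MAFG, a small Maf transcription factor, was at 38.2 ± 0.938, 66.9 ± 3.10 and 89.5 ± 2.76 CPM in TMD8 and at 46.5 ± 3.59, 43.5 ± 3.78 and 49.2 ± 0.737 CPM in OCI-Ly1. LY9, a receptor of the SLAM family, was at 2.49 ± 0.530 CPM with DMSO and 20.1 ± 2.16 CPM at the higher dose in TMD8, against 26.1 ± 1.45 and 51.1 ± 1.44 CPM in OCI-Ly1. At 500 nM in TMD8 the log2 changes of CIITA (1.09), MAFG (1.23) and LOC146880 (1.16) were near that of HEXIM1 in size, and those of LY9 and the microRNA host gene MIR22HG were 2.99 and 2.15. These 5 genes were chosen for their likeness to HEXIM1 over the same libraries, so their values restate that choice and carry no test. MIR22HG reached the minimum of 5 CPM in OCI-Ly1 only at 500 nM (5.07 CPM, against 3.65 with DMSO), and LY9 reached it in TMD8 only in the treated groups.

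**Figure D4:**
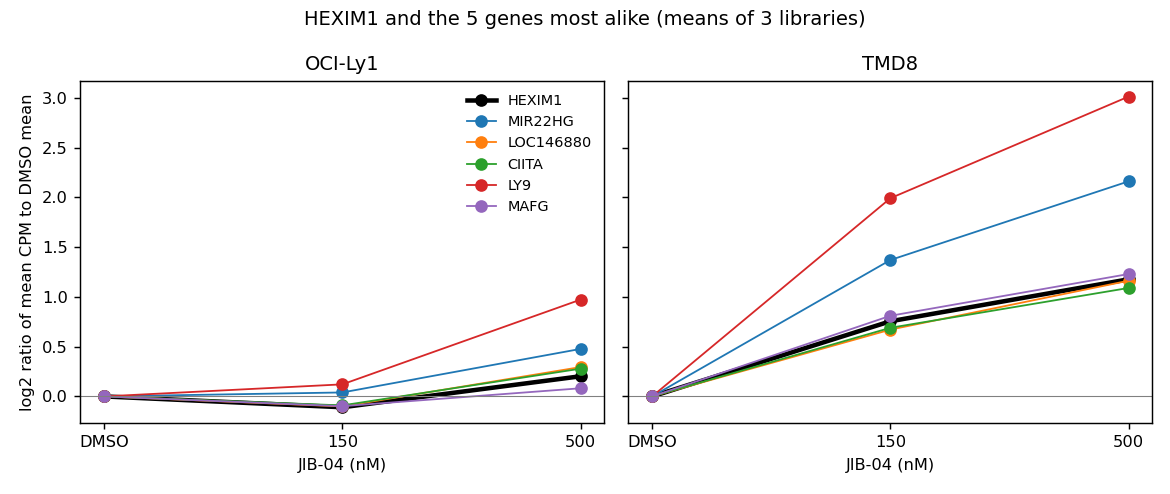
Log2 ratio of the mean CPM of 3 libraries to the DMSO mean (y axis) for HEXIM1 (black) and the 5 genes most like it, by JIB-04 dose (x axes), in OCI-Ly1 (left) and TMD8 (right). In TMD8 all 6 curves rise at each dose, with CIITA at 1.09 and MAFG at 1.23 close to HEXIM1 at 1.17 at 500 nM, and in OCI-Ly1 only LY9 nears 1, at 0.97.

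Other genes of pause control were counted in 6 lists of 44 names, of which 43 had a symbol in the tables (the 7SK RNA gene RN7SK was not analysed here). At 500 nM, 8 rose and 16 fell of 42 tested in OCI-Ly1 (27.7% and 25.9% of all genes), with a median of -0.04, and 6 rose and 27 fell of 41 tested in TMD8 (29.9% and 30.7%), with a median of -0.27. At 150 nM the counts were 0 and 0 in OCI-Ly1 (0.748% and 0.141%) and 3 and 22 in TMD8 (19.2% and 25%).

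Of 8 tested partners of 7SK and HEXIM proteins, 1 rose and 7 fell at 500 nM in OCI-Ly1 (27.7% and 25.9% of all genes). In TMD8, 1 rose and 6 fell (29.9% and 30.7%). HNRNPA2B1 and HNRNPA1, RNA-binding proteins that take up 7SK when P-TEFb leaves it, fell in both lines. HNRNPA2B1 fell by a log2 change of -0.95 ± 0.05 in OCI-Ly1 and -0.71 ± 0.06 in TMD8 (edgeR adjusted p = 7.71e-11 and 8.19e-09). HNRNPA1 fell by -0.69 and -0.56, and SRSF2, a splicing factor that binds 7SK, by -0.38 and -0.66. HEXIM2, the paralog of HEXIM1 and the next protein-coding gene after it on chromosome 17, was at 5.63, 4.93 and 4.76 CPM with DMSO in OCI-Ly1 and 8.37, 8.21 and 7.51 CPM at 500 nM. HEXIM2 thus rose in the line where HEXIM1 did not pass the test (log2 0.65 ± 0.13, edgeR adjusted p = 0.000338). In TMD8 HEXIM2 was at 6.67, 7.23 and 6.94 CPM and then 7.65, 8.30 and 7.67 CPM. These groups did not overlap, but the log2 difference of 0.18 ± 0.11 did not pass (edgeR adjusted p = 0.175). It was called with library size only (0.27, edgeR adjusted p = 0.0442). In TPM the order turned, also without overlap, at 3.85 to 4.31 with DMSO and 3.25 to 3.81 at 500 nM. The lowest alternative value was -0.19 and was not called. The HEXIM2 change was larger in OCI-Ly1 by 0.50 ± 0.16 (edgeR adjusted p = 0.0152), opposite in sign to that of HEXIM1.

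The super elongation complex carries P-TEFb to paused polymerase. Of 9 of its genes, 4 rose and 2 fell at 500 nM in OCI-Ly1 (27.7% and 25.9% of all genes). In TMD8, 4 rose and 3 fell (29.9% and 30.7%). AFF1, a scaffold of the complex, was at 71.1 ± 4.43 CPM with DMSO in TMD8 and 107.6 ± 4.64 CPM at 500 nM (log2 0.60 ± 0.06, edgeR adjusted p = 2.06e-07), and rose in OCI-Ly1 as well (0.29 ± 0.08, edgeR adjusted p = 0.00391), with a difference between lines of -0.28 ± 0.10 (edgeR adjusted p = 0.0289). The AFF1 rise did not pass in TMD8 on unscaled TPM (0.19, limma adjusted p = 0.144) or in OCI-Ly1 on centred TPM (0.15, limma adjusted p = 0.125). ELL3, an elongation factor of the ELL family, fell in both lines. It was at 229.5 ± 6.20 CPM with DMSO and 119.0 ± 3.11 CPM with 500 nM in OCI-Ly1, and at 38.3 ± 2.0 and 18.9 ± 1.44 CPM in TMD8 (log2 -0.95 ± 0.05 and -1.01 ± 0.08). Its relative ELL2 went opposite ways. It rose in OCI-Ly1 (5.37 ± 0.274 and 7.91 ± 0.761 CPM, log2 0.56 ± 0.13) and fell in TMD8 (102.7 ± 4.31 and 80.2 ± 1.08 CPM, -0.36 ± 0.05), a difference of 0.95 ± 0.11 (edgeR adjusted p = 2.13e-07).

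The pausing factors NELF and DSIF hold the polymerase and are phosphorylated by P-TEFb. Of 6 of their genes at 500 nM, 1 fell in OCI-Ly1 (25.9% of all genes) and 5 in TMD8 (30.7%). None rose in either line, beside 27.7% and 29.9% of all genes. NELFCD fell in both, by -0.42 ± 0.05 and -0.48 ± 0.05 (edgeR adjusted p = 2.59e-06 and 1.9e-07). The exception in TMD8 was the DSIF subunit SUPT5H (0.06 ± 0.05, edgeR adjusted p = 0.248), named here after its value was seen. Of 7 genes of the PAF1 elongation complex and SUPT6H, 1 rose and 3 fell at 500 nM in OCI-Ly1 (27.7% and 25.9% of all genes). In TMD8, 0 rose and 6 fell (29.9% and 30.7%). LEO1, RTF1 and CTR9 fell in both, by -0.28, -0.24 and -0.24 in OCI-Ly1 and by -0.46, -0.41 and -0.50 in TMD8. On unscaled TPM the 3 falls in OCI-Ly1 were -0.14, -0.10 and -0.10 and did not pass (limma adjusted p = 0.147, 0.144 and 0.263).

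Of 9 other transcriptional CDKs and their cyclins, 2 rose and 1 fell at 500 nM in OCI-Ly1 (27.7% and 25.9% of all genes). In TMD8, 1 rose and 5 fell (29.9% and 30.7%). CCNC, the cyclin of the Mediator kinases, fell in both (-0.39 ± 0.07 and -0.60 ± 0.08, edgeR adjusted p = 0.00016 and 2.07e-06), though not on unscaled TPM in OCI-Ly1 (-0.25, limma adjusted p = 0.0616). CDK13, an elongation kinase that pairs with cyclin K, rose by 0.47 ± 0.06 in OCI-Ly1 and 0.17 ± 0.05 in TMD8 (edgeR adjusted p = 1.55e-06 and 0.00808), but the TMD8 value was -0.19 on unscaled TPM and not called without DMSO library 2 (0.14, edgeR adjusted p = 0.0508).

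Besides HEXIM1, 4 genes used to follow BET inhibitors were looked up: SERPINI1 and the histone gene HIST2H2BE, reported to rise under such drugs, and CCR2 and CD180, reported to fall. HIST2H2BE, whose reads may be shared with other histone genes, fell in both lines. It was at 344.4 ± 20.9 CPM with DMSO and 148.8 ± 2.43 CPM with 500 nM in OCI-Ly1 (log2 -1.21 ± 0.05), and at 248.1 ± 20.9 and 117.3 ± 8.12 CPM in TMD8 (-1.08 ± 0.06, edgeR adjusted p = 3.76e-12 and 1.36e-10). CD180, a B-cell surface receptor, fell as well, with 29.8 ± 4.07 and 12.6 ± 1.21 CPM in OCI-Ly1 (-1.24 ± 0.10) and 93.8 ± 5.85 and 59.3 ± 2.95 CPM in TMD8 (-0.66 ± 0.06, edgeR adjusted p = 2.22e-08 and 8.22e-08). SERPINI1, a serpin, was at 12.5 ± 0.230 and 15.0 ± 2.57 CPM in OCI-Ly1 (0.27 ± 0.12, edgeR adjusted p = 0.0604; without 500 nM library 2 it was 0.39, 0.00546) and at most 1.05 CPM in every TMD8 library, too low to be tested there. CCR2, a chemokine receptor, was at 0 in all OCI-Ly1 libraries and at most 0.28 CPM in TMD8. HIST2H2BE and HEXIM1, both listed as genes that rise with BET inhibitors, moved in opposite directions in TMD8. CD180 moved in its reported direction in both lines. Any likeness of JIB-04 to a BET inhibitor was not tested.

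**Figure D5:**
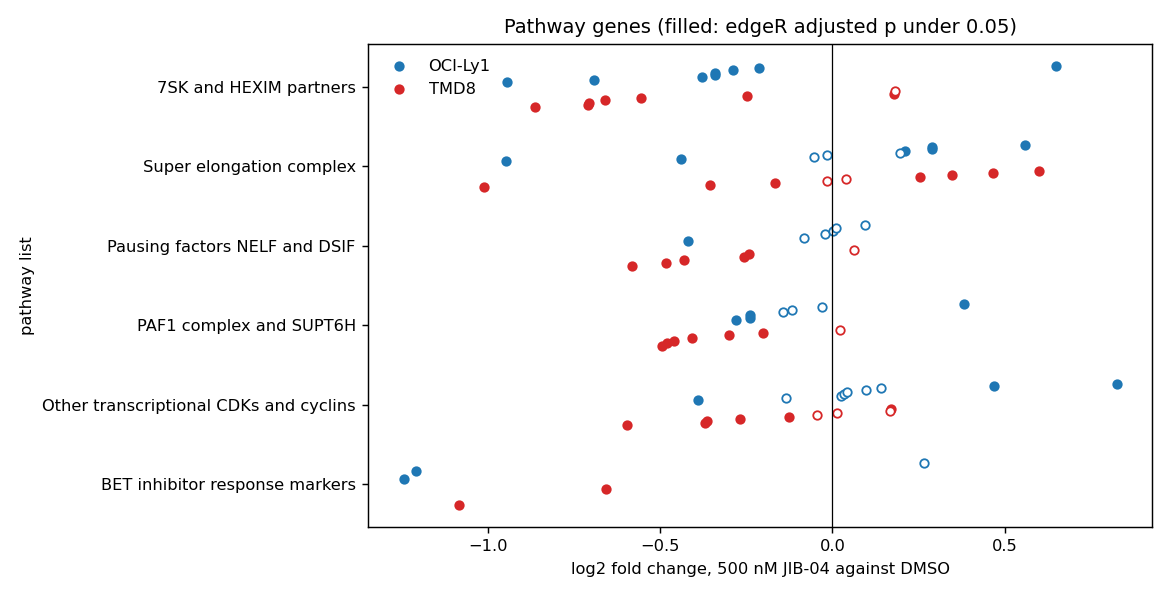
Log2 fold change at 500 nM JIB-04 against DMSO (x axis) for each tested gene of the 6 lists (rows), OCI-Ly1 in blue and TMD8 in red, filled where the edgeR adjusted p was under 0.05. Over all lists 27 of 41 genes fell and 6 rose in TMD8, beside 30.7% and 29.9% of all tested genes. In OCI-Ly1 16 of 42 fell and 8 rose, beside 25.9% and 27.7%. The CDK13 rise in TMD8 turned to a value of -0.19 on unscaled TPM.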

How the data were processed

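The authors deposited, for each line, a table of estimated counts and a table of TPM (transcripts per 1000000, scaled by length and library) over 23686 gene symbols. The submitters' processing notes name kallisto 0.46.0, R 4.3.1, DESeq2 1.40.2 and hg19, without their roles. Estimated counts were rounded and tested with edgeR 4.0.16 in R 4.3.3 (quasi-likelihood test, TMM, edgeR's low-count filter by group, Benjamini-Hochberg adjustment over all genes tested, threshold 0.05). The 9 libraries of a line were fitted together, and all 18 in a second fit for differences between lines. The SE was derived from each log2 fold change and its F statistic. CPM were scaled within each line, so levels were compared between lines only in the joint fit or in TPM. Alternatives were size factors, library size only, DESeq2 1.42.0, no filter, limma 3.58.1 with log2(TPM + 1), log2(TPM + 0.1) or log2(TPM + 1) centred per library, the replicate number as a block, only the groups compared, and leaving out 1 library at a time. The edgeR, limma and DESeq2 steps were tested on simulated data.

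The 8 members were always named. Of each list, up to 3 genes called at 500 nM in both lines with the largest smaller change were named, with HEXIM2 and the BET inhibitor markers always. Genes most like HEXIM1 were the 5 with the highest r over line-centred log2 CPM (prior count 2) among genes of at least 5 CPM in some group of each line. Members and lists were chosen with earlier results of these data known. Sequences came from RefSeq tables of GRCh38.p14, and no coordinate was carried to or from hg19. Libraries of a group differed by more than sampling noise (chi-square per degree of freedom 1.62 to 10.9 over 18 pairs), so all were kept. A marker gene of the B-cell list is not reported here.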

Additional observations from a re-analysis of the deposited data

Results flagged for a closer look

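The change against DMSO differed between the lines for HEXIM1, CCNT1 and BRD3, by the test of the difference itself in the fit of all 18 libraries (change in OCI-Ly1 minus change in TMD8, log2). For HEXIM1 the difference was -0.85 at 150 nM and -0.93 at 500 nM (edgeR adjusted p = 1.32e-05 and 2.36e-07), where HEXIM1 rose in TMD8 and did not pass against DMSO in OCI-Ly1. For CCNT1 it was 0.21 at 150 nM and 0.33 at 500 nM (edgeR adjusted p = 0.0433 and 0.000943), a fall in TMD8 that did not pass in OCI-Ly1. The CCNT1 difference at 150 nM was lost in 9 of 20 settings, 7 of them fits without 1 of the 12 libraries (down to 0.17 without TMD8 DMSO library 1, edgeR adjusted p = 0.119), and was 0.13 with library size only. For BRD3 it was 0.56 at 500 nM (edgeR adjusted p = 0.000502), a rise in both lines that was larger in OCI-Ly1, though the TMD8 value turned to -0.15 on unscaled TPM.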

How the results depend on the processing

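The rises of HEXIM1 against DMSO in TMD8 and its differences between lines kept their direction and call in every alternative, as did the falls of CCNT1 against DMSO in TMD8 and the rises of MEPCE and BRD3 in OCI-Ly1 at 500 nM. A change of sign is counted only where at least 1 of the values passed the test, and the cause of the changes below was not tested. On log2(TPM + 1) and log2(TPM + 0.1) these turned: in TMD8 BRD2 at 150 nM (-0.0764 and -0.0780), at 500 nM (-0.19 and -0.19) and between doses (-0.11 and -0.11), and at 500 nM MEPCE (-0.26 and -0.27), BRD3 (-0.15 and -0.17) and CDK13 (-0.19 and -0.20). So did the differences between lines at 500 nM of LARP7 (0.43 and 0.46), CCNT2 (0.42 and 0.47) and BRD2 (0.38 and 0.38), and with DMSO those of MEPCE (0.89 and 0.92, and 0.17 on centred TPM), CDK9 (0.47 and 0.48) and CCNT1 (0.59 and 0.62). On centred TPM, BRD2 at 500 nM in OCI-Ly1 was -0.0377 against DMSO and -0.0340 against 150 nM. HEXIM1 at 500 nM in OCI-Ly1 was called against DMSO with library size only (0.29) and on TPM (0.26 and 0.33), and was not called against 150 nM on centred TPM (0.13) or, in part, without 1 library (0.23 to 0.39). Its TMD8 step between doses was not called on TPM (0.19 and 0.20). With the replicate number as a block, HEXIM1 in TMD8 was 0.75 at 150 nM and 1.18 at 500 nM, and members called lower at 500 nM in OCI-Ly1 became 2 against DMSO and 2 against 150 nM, from 1 each. The block also passed CCNT2 in both of these, SERPINI1 in OCI-Ly1 and the MEPCE difference between lines at 500 nM (0.22), and changed no other call of a member or named gene. Same-numbered libraries of different groups had r of -0.05 to 0.15 (mean 0.024) in OCI-Ly1 and -0.05 to 0.14 (mean 0.015) in TMD8. Differently numbered ones had r of -0.17 to 0.04 (mean -0.012) and -0.19 to 0.10 (mean -0.0073). The ranges overlap and a small r cannot exclude pairing, so this check cannot decide whether the numbers pair libraries.

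Counts of members called higher changed as follows. The difference at 150 nM had 0 (from 1) with library size only or no filter, and 0 to 2 without 1 library. The difference at 500 nM had 4 (from 2) with size factors, DESeq2 or no filter and 7 on TPM. The DMSO difference had 6 (from 2) on TPM and 4 on centred TPM. In OCI-Ly1, 500 against 150 nM had 2 (from 4) on centred TPM and 2 to 4 without 1 library. In TMD8, 150 nM had 1 (from 2) and 500 nM 1 (from 3) on each TPM scale, and 500 against 150 nM had 1 (from 2) with size factors, DESeq2, no filter or centred TPM, 0 on TPM and 1 to 2 without 1 library. Counts called lower changed too. The differences at 150 and 500 nM each had 2 (from 1) with library size only and 1 to 2 without 1 library, and the DMSO difference 2 (from 4) on TPM. In OCI-Ly1, 500 nM had 0 (from 1) with library size only or on TPM, 2 with no filter, centred TPM or only the 6 libraries compared, and 0 to 1 without 1 library, and 500 against 150 nM had 0 with library size only or on TPM, 2 with size factors, DESeq2, no filter or centred TPM, and 0 to 2 without 1 library. In TMD8, 150 nM had 1 (from 2) with library size only or log2(TPM + 0.1) and 1 to 2 without 1 library, 500 nM had 1 (from 2) with library size only, 4 with no filter or centred TPM, 5 on TPM and 1 to 4 without 1 library, and 500 against 150 nM had 1 (from 0) with no filter or log2(TPM + 1) and 0 to 1 without 1 library. Counts over all genes moved with these settings too. For the difference at 500 nM, 4690 of 16604 genes were called higher, 4875 with size factors and 9119 on log2(TPM + 1). For the DMSO difference 6272 were called higher, and 11239 on log2(TPM + 1). In TMD8 at 500 nM, 4723 of 15363 genes were called lower, and 7538 on log2(TPM + 1). Over all genes at 500 nM, 49.3% of calls in TMD8 were rises, and 17.8% on log2(TPM + 1). In OCI-Ly1 these were 51.6% and 71.7%, with 32.4% on centred TPM and 64% with library size only. HEXIM1 had 205 to 292 estimated counts in the OCI-Ly1 DMSO libraries and 949 to 1399 in those of TMD8. At 500 nM against DMSO, OCI-Ly1 also had the larger SE for HEXIM1 (0.10, beside 0.07 for TMD8). Whether the lower counts account for this larger SE was not tested.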
